A study of Mus musculus with 4 samples.

Results

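The genes described here are 10 members of the transforming growth factor beta (TGF-beta) system in mouse rib chondrocytes, the cells that make cartilage matrix. They were chosen by symbol, with earlier results of these data known. They comprise the TGF-beta ligand genes Tgfb1, Tgfb2 and Tgfb3 and the activin chain genes Inhba and Inhbb. The others are the latent TGF-beta binding protein genes Ltbp1, Ltbp2, Ltbp3 and Ltbp4, and Tgfbi, which encodes a matrix protein induced by TGF-beta. All 10 were found in every library, among 17575 genes listed in all. Gene expression was measured by RNA-seq in 2 libraries of conditional knockout mice (KO) and 2 libraries of wild type mice (WT), all C57/Bl6 and 10 days old. KO mice carried the transgene Col2Cre(Tg), which drives Cre recombinase from a type II collagen promoter, together with the homozygous loxP-flanked alleles Kdm6a(fl/fl) and Kdm6b(fl/fl). Kdm6a and Kdm6b encode enzymes that erase a repressive, Polycomb-deposited methylation of histone H3. For WT mice the labels give no allele or transgene. Cells of both groups were freed from rib cartilage by overnight collagenase treatment, filtered and plated before RNA extraction. Separate animals or pools are not named for the replicates, and the spread behind each p-value is that between these samples, possibly technical only. The comparison asks how expression differs when both demethylase genes are targeted in cartilage.

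TGF-beta ligands are secreted as latent complexes, in which the mature dimer stays bound to its own propeptide. Latent binding proteins attach that complex to fibrillin and fibronectin fibres of the matrix, and integrins, proteases or thrombospondin can release the active ligand. Activin A is a dimer of the chains encoded by Inhba, is held back by follistatin, and acts with TGF-beta through receptors that phosphorylate Smad2 and Smad3. In cartilage, TGF-beta signalling is known to hold back hypertrophic maturation of chondrocytes.

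The libraries held 32332044 and 32230980 estimated counts in KO and 31616619 and 31178248 in WT. All 12 listed chondrocyte markers were present, 4 of them passing the test described below as higher in KO and 2 as lower. Their summed level was 58894 to 61350 CPM in KO and 43323 to 44590 CPM in WT, where CPM is the count scaled to library size, used here to set the same gene side by side between libraries. Most of that sum was Col2a1 alone, at 37111 and 36603 CPM in KO and 26008 and 24370 CPM in WT. The 2 markers that passed as lower were Matn1 and Comp. Kdm6a measured 28.6 and 31.4 CPM in KO and 52.6 and 56.9 CPM in WT. Kdm6b measured 51.4 and 46.2 CPM in KO and 131 and 118 CPM in WT. Both targeted genes were lower in each KO library than in either WT library, with counts taken over the whole gene and not over the deleted part. RNA of a whole culture was measured, so that fewer cells of a type and less RNA per cell cannot be told apart.

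Of the 10 genes, 6 differed between KO and WT at an edgeR adjusted p below 0.05. Inhba and all 4 latent binding protein genes fell, and Tgfb3 rose. Over all 13773 tested genes, 9.25% passed, 5.63% in the direction lower in KO and 3.62% in the direction higher in KO. The other 4 genes, Tgfb1, Tgfb2, Inhbb and Tgfbi, were lower in both KO libraries than in both WT libraries without passing. Groups without overlap were common in this comparison, as 61.7% of all tested genes had them, 30.7% lower in KO and 30.9% higher in KO. The median log2 fold change, KO minus WT, was -0.61 over the 10 genes and 0.00443 over all tested genes. The 10 genes were chosen with earlier results of these data known, so the gap to all genes is a description and no test. With limma on log2(FPKM + 1) of the deposited FPKM, Inhba, Ltbp2 and Ltbp4 fell and Tgfb3 rose, and over all genes 568 were higher and 512 lower in KO there, against 498 higher and 776 lower in edgeR. Without WT replicate 1, and without WT replicate 2, none of the 10 genes and none of all tested genes passed in edgeR. There 7 of the 10 had an unadjusted p under 0.05 in each case, and DESeq2 called 4 of the 10 without WT replicate 1 and 5 without WT replicate 2.

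**Figure D1:**
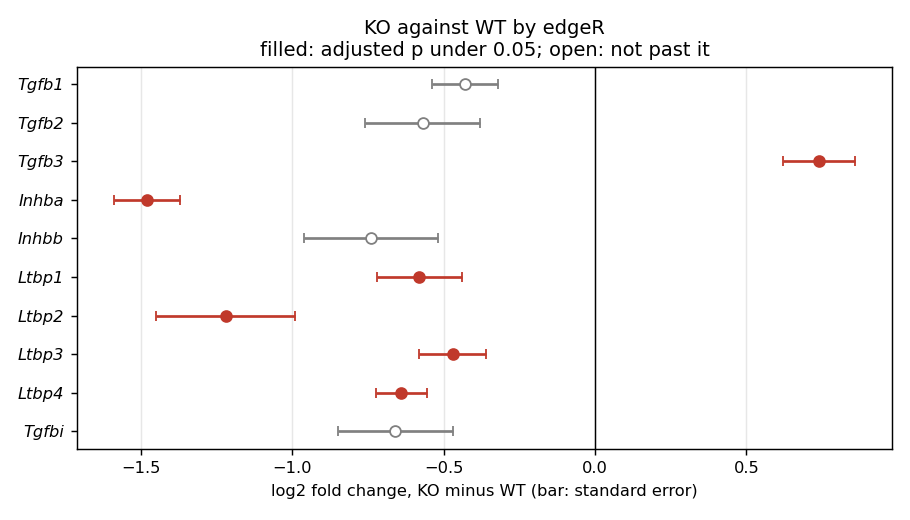
Log2 fold change of each gene, KO minus WT, on the horizontal axis, with 1 standard error as bars, from edgeR over 2 KO and 2 WT libraries. Filled points mark the 6 genes with an adjusted p below 0.05, of which only Tgfb3 lies to the right of 0.

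Levels of different genes were compared by FPKM, which scales fragments to gene length and library size. Inhba was the most abundant of the 10 transcripts in both groups. It averaged 143 ± 3.0 FPKM in KO and 389.5 ± 47 FPKM in WT (SD, n = 2 each), and 428 genes had a higher mean in KO and 161 in WT. Ltbp3 came next with 110.3 ± 15 FPKM in KO and 149.6 ± 11 FPKM in WT. At the other end, Inhbb averaged 0.710 ± 0.18 FPKM in KO and 1.17 ± 0.049 FPKM in WT, and Tgfb3 4.75 ± 0.33 FPKM in KO and 2.78 ± 0.13 FPKM in WT. The order in KO from high to low was Inhba, Ltbp3, Tgfbi, Tgfb1, Ltbp2, Tgfb2, Ltbp4, Ltbp1, Tgfb3 and Inhbb. In WT it was the same except that Ltbp2 stood above Tgfb1, with 70.4 and 72.7 FPKM for Ltbp2 and 62.6 and 50.05 FPKM for Tgfb1. In KO, Ltbp2 measured 23.2 and 40.0 FPKM and Tgfb1 45.2 and 40.4 FPKM, so that the pair changed places without overlap in either group, though in KO the ranges nearly touched. Neighbours whose libraries overlapped were Tgfbi with Tgfb1 in KO, Tgfbi with Ltbp2 in WT, and Tgfb2 with Ltbp4 and Ltbp4 with Ltbp1 in both groups.

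**Figure D2:**
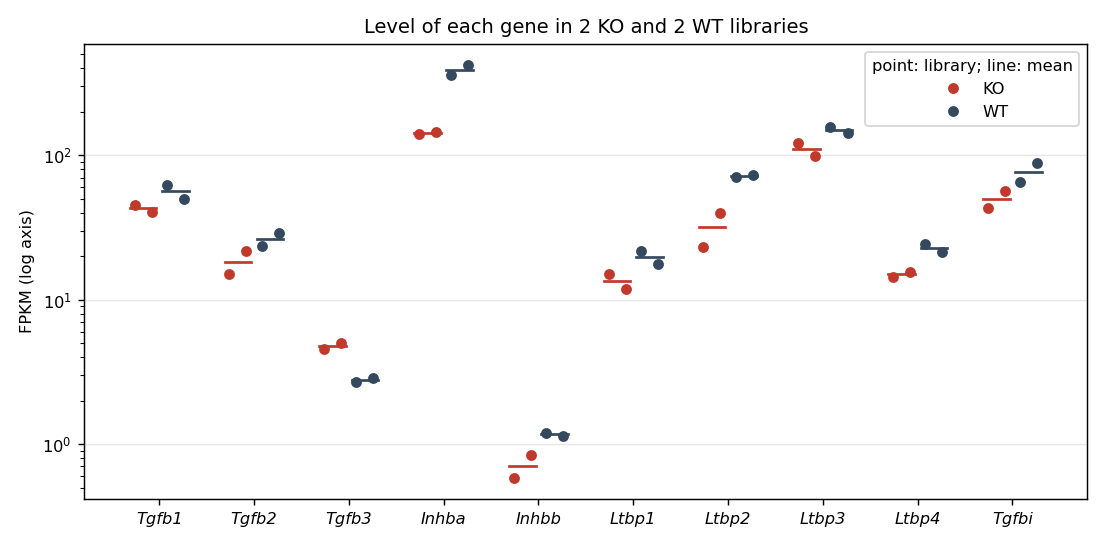
FPKM of the 10 genes on a log axis, with KO to the left of WT for each gene, a point for each library and a line at the mean of 2. For every gene the KO and WT points do not overlap, and Tgfb3 alone is higher in KO. By CPM, 61.7% of all tested genes had no overlap.

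Inhba (gene 16323), the chain of activin A, had the largest fall of the 10 genes. It measured 211 and 217 CPM in the KO libraries and 539.6 and 657 CPM in the WT libraries. The KO libraries lay close together and far below both WT libraries. Its log2 fold change was -1.48 (SE 0.11, edgeR adjusted p = 0.00182), 2.80-fold lower in KO. Inhba passed in 16 of 18 alternatives, the exceptions being edgeR without WT replicate 1 (adjusted p = 0.0903) and without WT replicate 2 (adjusted p = 0.158). Its gene length in the files was 1529 bases, and GENCODE M21 lists a longer transcript too, which the deposited length does not cover. Inhbb (gene 16324), the chain of activin B, had 81 and 116 counts in KO and 162 and 151 counts in WT, which gave 2.47 and 3.56 CPM in KO and 5.12 and 4.97 CPM in WT. Its log2 fold change, -0.74 with an SE of 0.22, did not pass (edgeR adjusted p = 0.0842), and it was -1.02 without KO replicate 2 (edgeR adjusted p = 0.0317). The FPKM of Inhba exceeded that of Inhbb 243-fold and 173-fold in the KO libraries and 297-fold and 374-fold in the WT libraries.

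Among 9844 other tested genes averaging at least 5 CPM, Mbp and Map1b were among the 3 nearest to Inhba by Euclidean distance of centred log2(CPM + 0.5) over the 4 libraries, at distances of 0.132 and 0.176. Mbp measured 3.66 and 4.27 CPM in KO and 10.1 and 13.4 CPM in WT. Map1b, which encodes a microtubule-associated protein, measured 20.4 and 19.3 CPM in KO and 51.7 and 55.2 CPM in WT. With so few libraries, the distance largely picks genes with a like gap between KO and WT. Log2 fold changes were -1.57 for Mbp and -1.43 for Map1b, beside -1.48 for Inhba. Shared regulation was not tested.

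The latent binding protein genes fell together, by different amounts. Their summed FPKM was 174 and 167 in KO and 273 and 254 in WT. Ltbp2 (gene 16997), whose protein binds fibrillin and is not known to bind latent TGF-beta itself, had the largest fall of the 4, with 153 and 264 CPM in KO and 471 and 498 CPM in WT. The KO libraries differed widely from each other, and both stayed below WT. The log2 fold change of Ltbp2 was -1.22 (SE 0.23, edgeR adjusted p = 0.0275), 2.32-fold lower in KO, and it was -0.87 without KO replicate 1 and -1.65 without KO replicate 2. Ltbp2 passed in 12 of 18 alternatives and did not pass without WT replicate 1 (edgeR adjusted p = 0.164, DESeq2 adjusted p = 0.378), without WT replicate 2 (edgeR adjusted p = 0.259, DESeq2 adjusted p = 0.583), with no filter on low counts (edgeR adjusted p = 0.0611) and with a robust edgeR fit (adjusted p = 0.103).

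Ltbp4 (gene 108075), known from mice as needed for elastic fibres, had the narrowest error of the 4. It measured 75.3 and 81.7 CPM in KO and 128 and 117 CPM in WT, and its log2 fold change came to -0.64 (SE 0.084, edgeR adjusted p = 0.0108). Like Inhba it passed in 16 of 18 alternatives, all but edgeR without WT replicate 1 (adjusted p = 0.115) and without WT replicate 2 (adjusted p = 0.184). Ltbp3 (gene 16998), which is needed for normal bone growth in mice, measured 628 and 516 CPM in KO and 824.5 and 766 CPM in WT. Its log2 fold change was -0.47 (SE 0.11, edgeR adjusted p = 0.0460). Ltbp1 (gene 268977), the most studied carrier of latent TGF-beta1, measured 102 and 80.9 CPM in KO and 149 and 125 CPM in WT, and its log2 fold change came to -0.58 (SE 0.14, edgeR adjusted p = 0.0490). In none of the 4 genes did the groups overlap, and 61.7% of all tested genes likewise had no overlap, in either direction.

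The calls of Ltbp1 and Ltbp3 lay near the threshold. They passed in 8 and 10 of 18 alternatives, with log2 fold changes between -0.76 and -0.41 for Ltbp1 and between -0.63 and -0.33 for Ltbp3. Neither passed with limma on log2(FPKM + 0.1), at adjusted p = 0.0878 for Ltbp1 and 0.0727 for Ltbp3, or in edgeR without a filter on low counts, at 0.0980 and 0.0910. Without KO replicate 2 the edgeR adjusted p was 0.0827 for Ltbp1 and 0.0996 for Ltbp3, without WT replicate 1 it was 0.221 and 0.203, and without WT replicate 2 it was 0.230 and 0.252. Ltbp3 counts were not whole in any library, since the deposited counts are estimates. For Ltbp2, 9.34% of exonic bases overlap D030025P21Rik on the opposite strand in GENCODE M21, a gene for which no value is given here. The sources used here do not say whether strand was used in counting, and reads of opposite strands are not told apart.

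Ltbp1 and Ltbp4 each have 2 RefSeq transcripts in the deposited files, and the deposited gene length then follows the mix of transcripts in a library. For Ltbp1 it was 6816 and 6883 bases in KO and 6809 and 6855 bases in WT. For Ltbp4 it was 5273 and 5269 bases in KO and 5273 and 5271 bases in WT. Groups overlapped for both genes with 2 libraries each, and no test of a shift between the listed transcripts was made.

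As shares of the summed FPKM of the 4 latent binding protein genes, Ltbp3 made up 69.7% and 59.6% in KO and 57.5% and 56.0% in WT. Ltbp2 made up 13.3% and 24.0% in KO and 25.8% and 28.6% in WT. Ltbp3 therefore held a larger share and Ltbp2 a smaller share in both KO libraries, by 7.93 and -8.55 percentage points in the mean. KO replicates set the size: without KO replicate 1 the differences were 2.88 for Ltbp3 and -3.24 for Ltbp2, and without KO replicate 2 they were 13.0 and -13.9. A two-sided exact permutation test of either share gave p = 0.333, the smallest p that 2 against 2 libraries can give. Ltbp1 held 8.66% and 7.06% in KO and 7.93% and 6.91% in WT, and Ltbp4 8.26% and 9.33% in KO and 8.81% and 8.42% in WT. The groups overlapped for both (exact permutation p = 0.667 for Ltbp1 and 1.0 for Ltbp4).

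**Figure D3:**
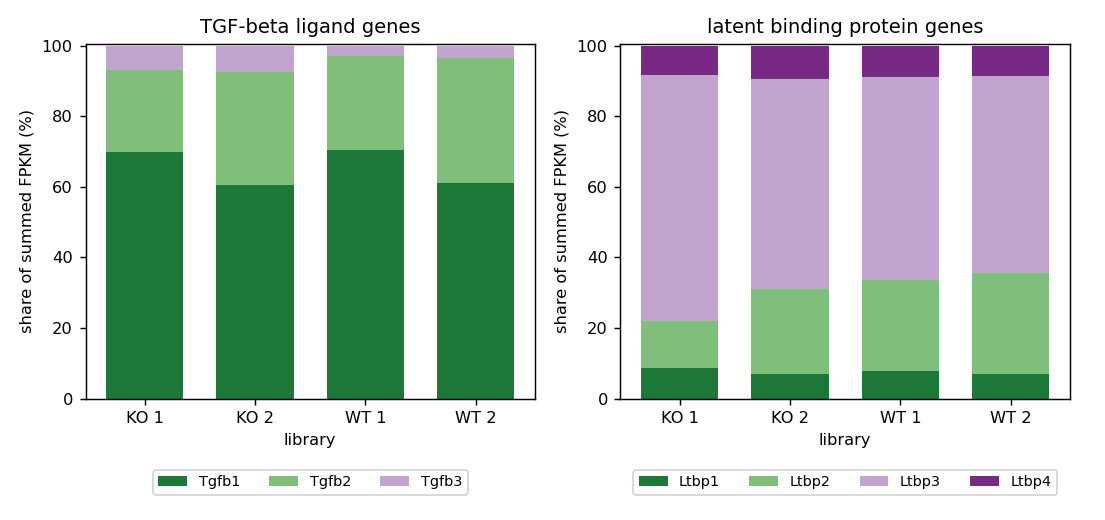
Share of summed FPKM in percent, stacked to 100, for the TGF-beta ligand genes (left panel) and the latent binding protein genes (right panel) in each of 2 KO and 2 WT libraries. Tgfb3 takes 6.99% and 7.45% in KO and 3.03% and 3.50% in WT, and Ltbp2 takes less in both KO libraries than in either WT library.

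Start sites of the genes that fell differ in base composition, shown here because the group moved together and because the Polycomb mark removed by Kdm6a and Kdm6b is known to lie mostly at starts rich in CG dinucleotides. No histone mark was measured in these libraries. The RefSeq promoter table, on GRCm38.p6, matched 9 of the 10 genes with 12 starts, and Tgfb3 was not matched. The 250 bases before the start are printed for Inhba and for the start farthest upstream of each latent binding protein gene, 5′ to 3′ along the gene, with each CG dinucleotide in capitals. The deposited values use build mm9, and coordinates here are of GRCm38.p6 alone. Inhba is at chr13:16011601-16011850 (plus strand), Ltbp1 at chr17:75005279-75005528 (plus strand), Ltbp2 at chr12:84876492-84876741 (minus strand), Ltbp3 at chr19:5740650-5740899 (plus strand) and Ltbp4 at chr7:27337613-27337862 (minus strand).
Inhba: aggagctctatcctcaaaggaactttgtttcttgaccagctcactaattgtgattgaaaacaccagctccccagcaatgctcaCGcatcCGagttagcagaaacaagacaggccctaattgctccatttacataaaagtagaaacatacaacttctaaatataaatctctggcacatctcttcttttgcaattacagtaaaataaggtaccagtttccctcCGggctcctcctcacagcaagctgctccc
Ltbp1: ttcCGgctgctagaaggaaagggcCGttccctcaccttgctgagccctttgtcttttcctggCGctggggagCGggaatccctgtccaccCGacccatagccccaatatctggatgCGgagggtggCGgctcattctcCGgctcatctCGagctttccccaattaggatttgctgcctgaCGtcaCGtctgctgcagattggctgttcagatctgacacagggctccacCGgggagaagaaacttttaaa
Ltbp2: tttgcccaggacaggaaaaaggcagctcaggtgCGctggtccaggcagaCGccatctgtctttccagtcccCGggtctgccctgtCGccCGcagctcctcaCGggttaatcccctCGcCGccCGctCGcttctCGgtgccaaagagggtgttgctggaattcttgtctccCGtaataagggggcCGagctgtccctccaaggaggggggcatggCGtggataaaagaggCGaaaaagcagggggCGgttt
Ltbp3: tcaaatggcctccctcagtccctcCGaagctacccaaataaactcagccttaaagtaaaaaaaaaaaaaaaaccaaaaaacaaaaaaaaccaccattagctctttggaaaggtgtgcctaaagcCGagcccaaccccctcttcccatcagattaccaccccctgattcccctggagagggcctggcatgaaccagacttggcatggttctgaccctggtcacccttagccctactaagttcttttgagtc
Ltbp4: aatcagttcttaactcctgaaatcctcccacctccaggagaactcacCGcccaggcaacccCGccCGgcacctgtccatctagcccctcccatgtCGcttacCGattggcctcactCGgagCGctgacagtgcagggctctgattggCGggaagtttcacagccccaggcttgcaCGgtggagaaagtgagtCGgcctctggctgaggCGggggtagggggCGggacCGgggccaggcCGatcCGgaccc

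The printed stretch of Ltbp3 held 2 CG dinucleotides and that of Inhba 3, against 12 for Ltbp1, 15 for Ltbp4 and 16 for Ltbp2. Starts not printed differed from these, with 7 for Ltbp1 and 28 and 29 for Ltbp4. The median over all 32851 promoters of the table was 6. Of those, 18.8% held fewer than Ltbp3, 29.0% fewer than Inhba and 74.6% fewer than Ltbp2. Among members that did not pass, the same stretch held 21 in Tgfb1 and in Inhbb, 15 in Tgfbi and 8 in Tgfb2. Among the genes that fell, counts of the printed stretches ran from 2 to 16. Bases after the start were not counted, and a link to histone marks was not tested. On both strands, TATAAA was found in Inhba and Tgfb2 and in 12.4% of all promoters, and the cAMP response element TGACGTCA in Ltbp1 and in 1.55%. CAGACA, which holds a Smad binding core, was found in Tgfb2 and at the downstream start of Ltbp1 and in 17.1% of all promoters. The AP-1 motif TGACTCA was in none of the 12 and in 4.46%. No match in the 12 overlapped another, and a match describes letters only.

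Of the ligand genes, Tgfb3 (gene 21809) alone rose. It measured 15.2 and 16.8 CPM in KO and 9.17 and 10.0 CPM in WT, from 499 and 548 counts in KO and 290 and 305 counts in WT. Both KO libraries were above both WT libraries, and libraries within a group were close. The log2 fold change was 0.74 (SE 0.12, edgeR adjusted p = 0.0189), 1.67-fold higher in KO. Tgfb3 passed in 12 of 18 alternatives, and did not pass without WT replicate 1 (edgeR adjusted p = 0.130, DESeq2 adjusted p = 0.220), without WT replicate 2 (edgeR adjusted p = 0.192, DESeq2 adjusted p = 0.132), or in DESeq2 without KO replicate 1 (adjusted p = 0.0761) and without KO replicate 2 (adjusted p = 0.171). The span of the gene overlaps that of Ttll5 on the opposite strand, with no exonic overlap in GENCODE M21. Ttll5 measured 17.8 and 18.1 CPM in KO and 15.4 and 17.5 CPM in WT (edgeR adjusted p = 0.484). Gm48008 and Gm37804, also on the opposite strand, overlap 7.60% and 4.82% of the exonic bases of Tgfb3.

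Tgfb1 (gene 21803), the most abundant of the 3 ligand transcripts per length, measured 93.2 and 83.4 CPM in KO and 131 and 107 CPM in WT. Its log2 fold change was -0.43 (SE 0.11, edgeR adjusted p = 0.0651). Tgfb2 (gene 21808) measured 70.1 and 101.4 CPM in KO and 113 and 142 CPM in WT, and its log2 fold change came to -0.57 (SE 0.19, edgeR adjusted p = 0.107). KO libraries were lower for both genes, but KO replicate 2 and WT replicate 1 were close for Tgfb2. With all 4 libraries neither passed in edgeR, whereas DESeq2 gave adjusted p = 0.0172 for Tgfb1 and 0.0198 for Tgfb2. Single libraries decided these values. For Tgfb1 edgeR gave -0.51 without KO replicate 1 (adjusted p = 0.0437) and -0.28 without WT replicate 1 (adjusted p = 0.211). For Tgfb2 it gave -0.33 without KO replicate 1 (adjusted p = 0.210) and -0.85 without KO replicate 2 (adjusted p = 0.00502). The summed FPKM of the 3 ligand genes was 64.7 and 66.9 in KO and 88.9 and 82.0 in WT. Tgfb3 made up 6.99% and 7.45% of that sum in KO and 3.03% and 3.50% in WT (exact permutation p = 0.333, the smallest possible). The share of Tgfb1 was 69.9% and 60.4% in KO and 70.4% and 61.1% in WT, and that of Tgfb2 23.1% and 32.2% in KO and 26.6% and 35.4% in WT. Both of these shares overlapped between groups (exact permutation p = 0.667 each).

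Tgfbi (gene 21810), named for its induction by TGF-beta, encodes a secreted protein that binds collagens and integrins. It measured 115 and 149 CPM in KO and 173 and 244 CPM in WT. The spread within WT was larger than the gap between KO replicate 2 and WT replicate 1. Its log2 fold change was -0.66 (SE 0.19, edgeR adjusted p = 0.0736), and DESeq2 gave adjusted p = 0.00333. The edgeR value was -0.89 without WT replicate 1, -0.39 without WT replicate 2 and -0.85 without KO replicate 2, where it passed (adjusted p = 0.0127). DESeq2 no longer called Tgfbi without KO replicate 1 (adjusted p = 0.805), without KO replicate 2 (adjusted p = 0.301) or without WT replicate 2 (adjusted p = 0.398).

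In the authors' deposited table of a DESeq2 comparison, 9 of the 10 genes had an adjusted p below 0.05, 8 of them lower in KO, where 8.52% of its 17529 genes did. Inhbb was the exception, at adjusted p = 0.136 in the authors' deposited table. That authors' deposited table marks 1.58% of genes as up or down, and among the 10 it marks Inhba and Ltbp2, with log2 fold changes of -1.46 and -1.07. In the DESeq2 run made here, where 12.6% of 12784 genes with an adjusted p passed, 9 of the 10 did, 8 of them lower in KO.

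Members differed in how replicates of a group were placed. In 5 genes, Tgfb2, Tgfb3, Inhba, Ltbp2 and Tgfbi, replicate 2 was higher than replicate 1 in both groups, and in 3 genes, Tgfb1, Ltbp1 and Ltbp3, it was lower in both. These patterns were not counted over all genes, where deviations of KO 1 and WT 1 from their group means correlated at 0.107. With so few libraries, unrelated genes can share an order. Summed markers of perichondrial fibroblasts had the order of Tgfb2, Inhba, Ltbp2 and Tgfbi, with 675 and 920.4 CPM in KO and 1074 and 1539 CPM in WT, of which 2 of 8 passed as lower, Col1a2 and Dcn, and none as higher. Without Col1a2 and Dcn, a choice made after the data were seen, the sum was 317.6 and 457.7 CPM in KO and 373.6 and 482.7 CPM in WT, and the groups overlapped. The osteoblast and erythroid sums had that order of libraries too. Summed endothelial markers had the order of Tgfb1, Ltbp1 and Ltbp3, with 90.5 and 77.9 CPM in KO and 124 and 114 CPM in WT, and 3 of 8 passed as lower. Osteoblast markers summed to 3.36 and 4.27 CPM in KO and 7.15 and 7.97 CPM in WT, with 1 of 5 passing as lower. Macrophage markers summed to at most 32.4 CPM in KO and at least 47.1 CPM in WT, with 1 of 6 tested passing as lower. The macrophage complement genes C1qa, C1qb and C1qc were at or below 0.184 CPM in every library, too low to be tested, with both KO libraries above both WT libraries for each of them. Erythroid markers summed to 9.06 and 9.79 CPM in KO and 16.4 and 20.1 CPM in WT, with 2 of 3 tested passing as lower. Neutrophil markers at 56.7 and 23.4 CPM in KO and 54.7 and 98.1 CPM in WT, and muscle markers at 6.04 and 24.3 CPM in KO and 9.39 and 8.43 CPM in WT, overlapped between groups. The part of these cell types in the values of the 10 genes was not tested.

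The pathway around these genes was read from lists, given by counts and medians. Without WT replicate 1 or WT replicate 2, edgeR called 0 genes of every list, as of all genes, and without KO replicate 2 it called 0 receptor and 0 intracellular genes. Against the 9.25% called over all tested genes, the share was 11.1% of receptors, 14.3% of storage and activation genes, 8.33% of intracellular genes and 33.3% of responsive genes, with 2 of the 4 tested antagonists and inhibin chains. For receptors and intracellular genes this is 1 gene each, near the background. Of 9 receptor genes, 1 fell and none rose, with a median log2 fold change of -0.20. Without KO replicate 1 edgeR called 1 receptor gene higher and 0 lower, and DESeq2 on all libraries called 1 higher and 1 lower. Eng, which encodes the co-receptor endoglin, fell to 29.6 and 28.7 CPM in KO, against 39.1 and 38.7 CPM in WT (log2 fold change -0.42, SE 0.076, edgeR adjusted p = 0.0245). The endothelial marker sum given above was lower in KO too, and the part of endothelial cells in the value of Eng was not tested. The activin receptor gene Acvr1b measured 24.0 and 38.9 CPM in KO and 18.5 and 18.1 CPM in WT (edgeR adjusted p = 0.0703). Tgfbr1, the type I receptor of TGF-beta, measured 61.3 and 58.3 CPM in KO and 65.1 and 82.3 CPM in WT (edgeR adjusted p = 0.149), and Acvr1c stayed below 1 CPM in all libraries.

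Among activin antagonists and other inhibin chains, 4 of 7 listed genes were tested. Fst, which encodes the activin-binding protein follistatin, fell to 19.9 and 22.8 CPM in KO, against 36.6 and 42.3 CPM in WT (log2 fold change -0.89, SE 0.11, edgeR adjusted p = 0.00960). Bambi, a pseudoreceptor gene that dampens TGF-beta signalling, rose to 26.8 CPM in each KO library, against 15.4 and 16.7 CPM in WT (log2 fold change 0.74, SE 0.093, edgeR adjusted p = 0.00960). Fstl3, another activin-binding protein gene, measured 5.43 and 5.25 CPM in KO and 4.49 and 6.06 CPM in WT. Inha, the inhibin alpha chain gene, measured 2.99 and 3.41 CPM in KO and 3.89 and 2.44 CPM in WT, and neither passed (edgeR adjusted p = 0.959 and 0.978).

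Of 21 genes of latent complex storage and activation, 2 rose, 1 fell and 18 did not pass, with a median log2 fold change of -0.03, while limma on FPKM called 1, DESeq2 5 and edgeR without KO replicate 1 also 5. The fibrillin genes Fbn1 and Fbn2, whose proteins anchor latent complexes, rose while the latent binding protein genes fell. Fbn1 measured 182 and 203 CPM in KO and 125 and 136 CPM in WT (log2 fold change 0.56, SE 0.088, edgeR adjusted p = 0.0165). Fbn2 measured 13.1 and 14.1 CPM in KO and 8.03 and 7.77 CPM in WT (log2 fold change 0.78, SE 0.12, edgeR adjusted p = 0.0156). Dcn, which encodes the TGF-beta binding proteoglycan decorin and is also a fibroblast marker, fell to 252 and 313 CPM in KO, against 446 and 732 CPM in WT (edgeR adjusted p = 0.0397). Thbs1, whose product thrombospondin can activate latent TGF-beta, measured 3201 and 4413 CPM in KO and 2039 and 2626 CPM in WT and did not pass (edgeR adjusted p = 0.0600).

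Among 12 intracellular transducers and inhibitors, 1 fell, none rose and 11 did not pass, with a median of -0.13. Tgif1, a corepressor of Smad2, fell to 123 and 115 CPM in KO, against 161 and 162 CPM in WT (log2 fold change -0.44, SE 0.072, edgeR adjusted p = 0.0187). Smad7, the inhibitory Smad gene induced by TGF-beta, measured 71.6 and 70.7 CPM in KO and 101.2 and 84.2 CPM in WT (edgeR adjusted p = 0.0633). Smad4 measured 88.9 and 85.2 CPM in KO and 98.7 and 99.0 CPM in WT, and the ubiquitin ligase gene Smurf1 82.9 and 92.6 CPM in KO and 99.5 and 99.0 CPM in WT (edgeR adjusted p = 0.141 and 0.199).

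Genes known to respond to TGF-beta moved in both directions. Of 21 tested, 4 rose, 3 fell and 14 did not pass, with a median log2 fold change of -0.15. Acta2, the smooth muscle actin gene, rose to 168 and 166 CPM in KO, against 48.8 and 61.2 CPM in WT (log2 fold change 1.60, SE 0.11, edgeR adjusted p = 0.00182). Snai2, a transcription factor gene, rose to 43.1 and 46.9 CPM in KO, against 26.1 and 29.6 CPM in WT (edgeR adjusted p = 0.0121). Timp1, a metalloproteinase inhibitor gene, rose to 4033 and 3832 CPM in KO, against 2737 and 2494 CPM in WT (edgeR adjusted p = 0.0129). Named after their values were seen are Lox and Col1a2, which fell (log2 fold change -1.22 for Lox and -1.18 for Col1a2), and Tagln, which rose (0.84). Col1a2 is itself part of the fibroblast marker sum, and without Col1a2 and Dcn that sum overlapped between groups. The part of fibroblasts or osteoblasts in the values of Lox and Col1a2 was not tested. Acta2 has close relatives in the genome, and its value is uncertain where counting split reads between copies.

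**Figure D4:**
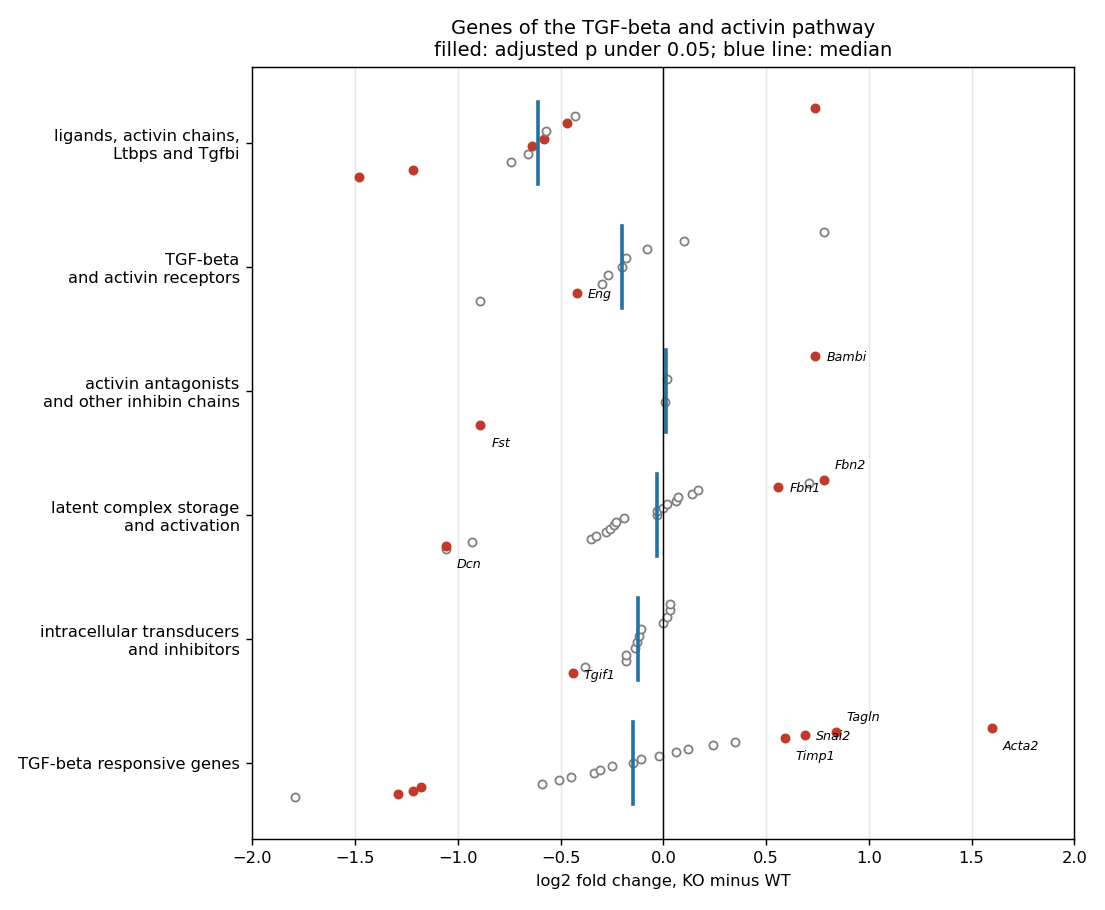
Log2 fold change, KO minus WT, of each tested gene (points) in the 10 genes described first and in 5 lists of pathway genes, with the list median as a blue line. Filled points mark an adjusted p below 0.05, and the medians run from -0.61 in the top row to 0.02 for the activin antagonists and other inhibin chains.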

How the data were processed

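RNA-seq values of 4 libraries, 2 KO and 2 WT, were used, with groups and replicate numbers from the sample titles. Triplicates are mentioned in the series' design, whereas each group had 2 libraries here. Bowtie2 2.2.5 and build mm9 are named in the submitters' processing notes; for the counting tool, the annotation release and the use of strand, the sources used here name nothing. The authors deposited an expected count, an FPKM value and a gene length for each gene in each library, per the file headers, and a DESeq2 comparison with group means on the scale of a normalized count signal, log2 fold changes, p-values and adjusted p-values.

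Rounded expected counts entered edgeR 4.0.16, run in R 4.3.3 (TMM scaling, filterByExpr, quasi-likelihood F test, Benjamini-Hochberg adjustment over 13773 genes), after a run on simulated data. Genes not listed in a library were taken as 0. The SE was taken as |log2 fold change| divided by √F. Each library held about the same depth, 31178248 to 32332044 counts, and replicates differed by more than counting noise (chi-square per gene 20.8 in KO and 19.0 in WT). Alternatives used DESeq2 1.42.0, limma 3.58.1 with trend on log2(FPKM + 0.1) and log2(FPKM + 1) of genes with at least 1 FPKM in 2 libraries, other scalings and filters, a replicate block and each library left out, where the lone library is assumed to vary like the other group. The 10 genes, the pathway lists and the motifs were chosen with earlier results of these data known. From each pathway list up to 4 tested genes with the smallest p-values are named, and a few results that these rules would name are not reported here.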

Additional observations from a re-analysis of the deposited data

How the results depend on the processing

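No log2 fold change of the 10 genes changed sign in any of 18 alternatives each. KO and WT libraries did not overlap in any of the 10, so leaving out 1 library could hardly change a sign. The other alternatives used the same libraries. Taking each gene in each alternative, 131 kept the status of the edgeR fit on all 4 libraries, called or not called. Another 34 lost a call and 15 gained one. The count of 6 called members was 3 with no filter on low counts, 10 with a replicate block, and 0 to 7 over fits that left out 1 library. Over all genes, 1274 calls became 720 with no filter, 2316 with the replicate block, and 0 to 1275 with 1 library left out. The 0 calls are edgeR without WT replicate 1 and without WT replicate 2, where 3442 and 2587 genes had an unadjusted p below 0.05. DESeq2 with 1 library left out, added after the data were seen, called 634 genes without KO replicate 1, 783 without KO replicate 2, 544 without WT replicate 1 and 417 without WT replicate 2. Libraries with equal replicate numbers share only a number, and their deviations from the group means correlated across genes at 0.107 in KO 1 with WT 1, so the block is given here alone. The shares of summed FPKM that overlapped between groups changed sign. The Tgfb1 share differed by -0.574 percentage points, KO minus WT, by 0.210 with CPM in place of FPKM and by -5.36 to 4.21 with 1 library left out. With 1 library left out, Tgfb2 ran from -7.93 to 1.17, Ltbp1 from -0.357 to 1.24 and Ltbp4 from -0.357 to 0.714. With 1 library in a group these shares have no test. The cause of these changes was not tested. Inhbb, with 81 to 162 counts, has the least depth of the 10 genes.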
